A study of Rattus norvegicus with 12 samples.

Results

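Inflammasomes are protein platforms that turn a danger signal inside a cell into cytokine release and lytic cell death. A sensor such as NLRP3 recruits the adaptor ASC, which gathers and activates caspase-1, and that protease cuts the precursors of the cytokines interleukin-1 beta and interleukin-18. Inflammatory caspases also cut gasdermin D, which then forms pores in the plasma membrane, and in the heart this pathway is known mainly from macrophages, fibroblasts and the inflammatory reaction to injury and load. The 8 genes described here were the sensor gene Nlrp3, the adaptor gene Pycard, the caspase genes Casp1, Casp4 and Casp12, the pore-former gene Gsdmd and the cytokine genes Il1b and Il18, selected by gene symbol from the 32545 genes of the deposited table. They were chosen by name with earlier results of these data known. The fall of Casp4 in the volume-overloaded left ventricle was among those results, so that comparison, and the difference between the ventricles' responses that contains it, are given as values and counts, with no p for any member, and nothing is read from them.

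RNA was sequenced from the free walls of both ventricles, left (LV) and right (RV), of Sprague–Dawley rats at P7, that is, on postnatal day 7. Volume overload (VO) came from a fistula made on postnatal day 1 between the abdominal aorta and the inferior vena cava, and sham rats were operated on at the same age without a fistula. Each of the groups (sham LV, VO LV, sham RV and VO RV) had 3 libraries. The sources do not say whether an LV and an RV library came from the same rat or whether rats were pooled, so the p values measure the spread between these libraries.

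The reads on genes numbered 14121713 to 16871371 per library. Genes that define ventricular cardiomyocytes were high in every library, with a summed FPKM (fragments per kilobase of transcript, scaled to the size of the library) of at least 19961. The summed FPKM of 4 atrial markers was 440 in sham RV replicate 1 and 1522 in VO RV replicate 2, against 148 to 306 in the other 10 libraries. Y-linked genes were near 0 in all VO LV libraries, in replicate 3 of both sham groups and in VO RV replicates 1 and 2, so sex differed between the groups. These are whole-wall samples, in which fewer cells of a type and less RNA per cell cannot be told apart.

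The 3 caspase genes lie close together on chromosome 8, on the + strand, at positions given as the deposited table lists them, with no genome build named. Casp1 (ENSRNOG00000007372) spans 2604962 to 2614631, Casp4 (ENSRNOG00000033697) spans 2635851 to 2651652 and Casp12 (ENSRNOG00000033434) spans 2659865 to 2686160. The gaps are 21219 and 8212 bases. Such neighbours are related copies, and reads that match more than 1 of them may have been split or dropped in the authors' counting, so the values of each carry that uncertainty. Il18 (ENSRNOG00000009848) spans 54993859 to 55016299 on the same chromosome and strand and overlaps Tex12 over 1013 bases and Bco2 over 5006 bases on the other strand. The strand setting of the counting was not given, so reads of Il18 and of these neighbours cannot be told apart where they overlap. Nlrp3 (ENSRNOG00000003170) lies on chromosome 10 at 45893018 to 45918254, + strand, and Gsdmd (ENSRNOG00000007728) on chromosome 7 at 116889572 to 116894134, + strand. Pycard (ENSRNOG00000019675) lies on chromosome 1 at 199437832 to 199439210 and Il1b (ENSRNOG00000004649) on chromosome 3 at 121876263 to 121882726, both on the − strand.

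Promoter windows from 250 bases before to 50 bases after the annotated start were taken from RefSeq (build GRCr8), and 6 of the 8 genes matched by symbol, all but Casp4 and Gsdmd. The windows of the neighbours Casp1 (chr8:10872580-10872879) and Casp12 (chr8:10926938-10927237), both + strand, are shown because they share an unbroken run of 14 bases, in capitals, on the same strand.
Casp1: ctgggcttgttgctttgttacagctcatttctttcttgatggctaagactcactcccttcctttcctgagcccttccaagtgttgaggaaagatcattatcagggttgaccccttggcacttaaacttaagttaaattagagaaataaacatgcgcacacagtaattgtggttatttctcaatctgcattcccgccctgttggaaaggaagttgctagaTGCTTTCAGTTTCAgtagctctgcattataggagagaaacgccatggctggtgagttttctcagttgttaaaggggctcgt
Casp12: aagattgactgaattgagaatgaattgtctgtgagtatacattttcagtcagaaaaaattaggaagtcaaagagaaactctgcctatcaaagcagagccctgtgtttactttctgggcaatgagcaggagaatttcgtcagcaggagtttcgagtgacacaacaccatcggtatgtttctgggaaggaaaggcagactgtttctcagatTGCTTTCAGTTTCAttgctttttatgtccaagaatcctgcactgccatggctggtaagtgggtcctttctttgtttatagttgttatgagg
The run, the longest that the pair shares, begins 31 bases before the start in Casp1 and 41 bases before it in Casp12. On either strand, 3 of 33469 rat promoters of this length (0.00896%) hold it, and this count includes the pair from which the run was taken. Short strings known for binding factors were also searched on both strands. The gamma-activated site TTCNNNGAA matched in Casp12 and Nlrp3 (8.87% of all promoters) and the C/EBP string TTNNGNAAT in Casp1 and Il1b (12.3%). The TATA box string TATAAA (14.2%) matched in Il1b, from 60 bases before the start. In Casp12 it matched only on the other strand, as TTTATA, from base 33 after the start, and so not upstream of it. The kappaB string GGANTTCC (4.59%), the AP-1 string TGACTCA (4.63%) and a second C/EBP string, ATTGCNNCA (2.13%), matched in none of the 6 windows. None of these strings contains another. The run and the strings were picked after matches had been seen, and they are tied to no result below.

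All 8 genes were expressed at low to moderate levels. The mean FPKM over the 12 libraries, a value per transcript length and so comparable between genes, was 6.89 for Gsdmd, 5.92 for Casp4, 3.88 for Casp12, 3.51 for Pycard and 2.04 for Casp1. It was 1.3 for Il1b, 0.930 for Il18 and 0.417 for Nlrp3. Of the tested genes, 46.0% lay below Gsdmd and 7.89% below Il18. The reads behind a single value ranged from 166 to 295 for Gsdmd and from 81 to 163 for Casp4, but from 12 to 71 for Il1b, 12 to 41 for Nlrp3 and 8 to 30 for Il18, so counting error alone limited the cytokine and sensor values. The test took genes whose FPKM averaged 0.5 or more, which left 13910 genes and 7 of the 8 members, Nlrp3 falling below. A gene is called where its fold change was over 1.3 and its p from limma, adjusted by Benjamini and Hochberg's method, was below 0.05, and all fold changes are differences of log2(FPKM + 0.5).

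**Figure D1:**
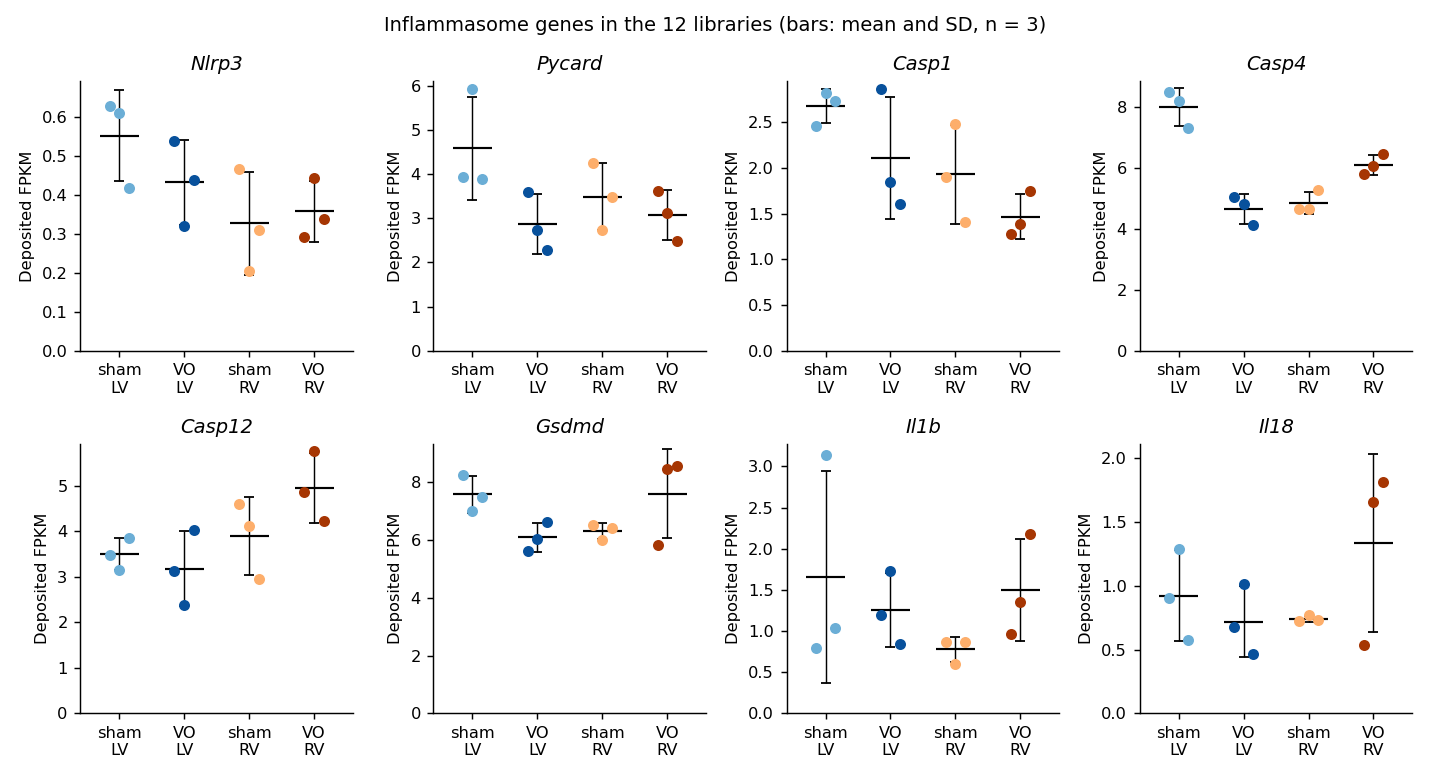
FPKM of the 8 genes (vertical axes, each from 0) in the 12 libraries, grouped as sham LV, VO LV, sham RV and VO RV, with points for libraries and bars for mean and SD (n = 3). Casp4 was between 7.32 and 8.51 in sham LV and between 4.12 and 6.47 in all the other libraries.

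Nlrp3 encodes the sensor that responds to potassium loss and to damaged organelles. Its FPKM was 0.627, 0.609 and 0.418 in sham LV and 0.467, 0.204 and 0.308 in sham RV. It was 0.537, 0.319 and 0.438 in VO LV and 0.291, 0.443 and 0.337 in VO RV. The groups overlapped in every comparison. In a fit that kept all genes above 0, sham LV exceeded sham RV by 0.35 ± 0.15 (SE) on the log2 scale, with an adjusted p of 0.251 from limma, and VO RV exceeded sham RV by 0.06 (adjusted p = 0.967).

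Pycard encodes ASC, the adaptor that links sensor and caspase. Its FPKM was 3.93, 5.92 and 3.89 in sham LV and 4.25, 2.74 and 3.48 in sham RV. The VO LV libraries had 3.6, 2.73 and 2.28, all below the lowest sham LV library, and the VO RV libraries had 3.62, 3.13 and 2.49, which overlapped with sham RV. Sham LV and sham RV differed by 0.34 ± 0.21 (adjusted p = 0.319 from limma), and the RV response was −0.15 ± 0.21 (adjusted p = 0.860). Neither passed the test. With single libraries left out the former ranged from 0.16 (without sham LV replicate 2) to 0.48, and the latter from −0.29 (without sham RV replicate 2) to −0.02 (without sham RV replicate 1). The LV response, given as a description, was −0.59 ± 0.21.

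Casp1 encodes the protease that matures both cytokines. Its FPKM was 2.46, 2.82 and 2.73 in sham LV, and 1.90, 2.48 and 1.41 in sham RV. After VO it was 2.87, 1.85 and 1.61 in the LV and 1.27, 1.38 and 1.75 in the RV. VO LV held both one of the highest and one of the lower values, and no pair of groups compared was free of overlap. The difference between sham LV and sham RV was 0.41 ± 0.21 (adjusted p = 0.240 from limma), that between VO LV and VO RV was 0.38 (0.512), and the RV response was −0.29 (0.706). The first was 0.24 without sham RV replicate 3, the second 0.18 without VO LV replicate 1, and the third −0.13 without sham RV replicate 2 and −0.45 without sham RV replicate 3.

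Casp4 encodes the inflammatory caspase that binds bacterial lipopolysaccharide in the cytosol and cuts gasdermin D directly. Its FPKM was 8.51, 8.22 and 7.32 in sham LV (8.02 ± 0.621, SD, n = 3) and 4.65, 4.67 and 5.28 in sham RV (4.87 ± 0.360). Under VO it was 5.06, 4.83 and 4.12 in the LV (4.67 ± 0.488) and 5.82, 6.06 and 6.47 in the RV (6.12 ± 0.327). The order of the group means was sham LV, VO RV, sham RV and VO LV, and the last 2 overlapped, whereas every library of sham LV lay above every library of each other group and VO RV lay between.

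Casp4 was 0.66 ± 0.11 (SE) higher on the log2 scale in sham LV than in sham RV, a 1.58-fold difference that passed the test (adjusted p = 0.0319 from limma). The exact permutation test of the FPKM gave its smallest possible p with 3 libraries against 3, 0.10. Casp4 was the 1 member called in this comparison, in which 3.86% of all tested genes were called. That share was 0% without sham RV replicate 1 and 6.27% without VO RV replicate 3, and 1 to 5 genes were called without sham LV replicate 1 or 2, sham RV replicate 2 or VO LV replicate 2. The libraries of sham LV also stand in the known VO LV comparison, so this test is not independent of it. The call was lost in 5 of 12 fits that each left out a library, namely sham LV replicate 1 or 2, sham RV replicate 1 or 2, or VO LV replicate 2, with adjusted p values of up to 0.122 and log2 differences of 0.62 to 0.72 over all 12. Without both RV libraries of high atrial markers the difference was 0.63 (adjusted p = 0.109), and 9 of all tested genes were called. With all genes above 0 in the test the adjusted p was 0.0616, and 8 genes were called. With the macrophage markers as a covariate the difference was 0.63 (adjusted p = 0.107 from limma), and 2 genes were called.

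**Figure D2:**
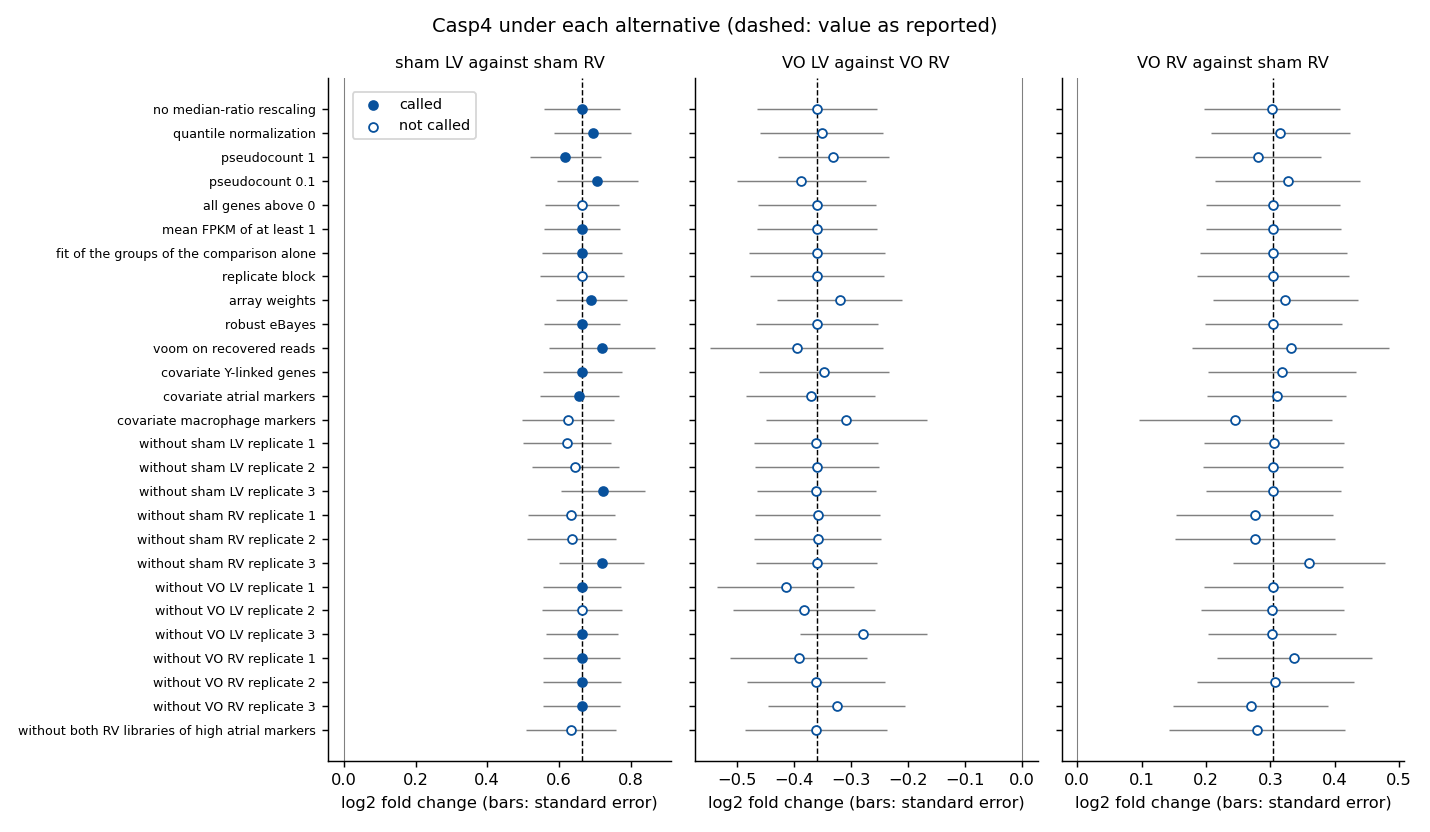
Casp4 in 3 comparisons (panels) under each alternative (vertical axis), with the log2 fold change on the horizontal axis, bars for the standard error, filled points where it was called, open points where it was not, and the reported value dashed. The sham difference lay between 0.62 and 0.72 throughout and was called in 18 of 27 alternatives, whereas the other 2 comparisons were called in none.

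In VO RV, Casp4 exceeded sham RV by 0.30 ± 0.11 on the log2 scale, with no overlap of the libraries. The change did not pass the test (adjusted p = 0.547 from limma, 0.0147 unadjusted). This comparison shares no library with the one in which Casp4 was known to fall. In the LV, as a description, Casp4 was 0.72 ± 0.11 lower in VO than in sham. Between the loaded ventricles it was 0.36 ± 0.11 lower in VO LV than in VO RV, again without overlap (adjusted p = 0.281). That comparison shares the VO LV libraries with the known one and is not independent of it. Among libraries with Y-linked sums near 0, Casp4 was 7.32 in sham LV, 4.12 to 5.06 in VO LV, 5.28 in sham RV and 5.82 and 6.06 in VO RV. Among those with Y-linked expression it was 8.51 and 8.22 in sham LV, 4.65 and 4.67 in sham RV and 6.47 in VO RV. Several of these sets hold 1 library and VO LV has none of the second kind. With the Y-linked genes as a covariate, the Casp4 difference between sham LV and sham RV was 0.66 (adjusted p = 0.0335 from limma), the RV response 0.32 (0.454) and the LV response −0.69. That LV response did not pass the thresholds, and of all tested genes 0 did, against 13 without the covariate. Without the covariate the LV response of Casp4 passed in 4 of 12 fits that each left out a library.

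Casp12 encodes the neighbouring caspase, linked to stress of the endoplasmic reticulum. Its FPKM was 3.48, 3.16 and 3.86 in sham LV and 4.61, 4.13 and 2.96 in sham RV. It was 3.13, 2.38 and 4.04 in VO LV and 4.87, 5.76 and 4.23 in VO RV. The libraries of VO LV all lay below those of VO RV, by 0.58 ± 0.19 on the log2 scale (adjusted p = 0.317 from limma), and sham LV and sham RV overlapped (−0.12, adjusted p = 0.715). The RV response was 0.32 (0.642), or 0.16 without sham RV replicate 3, and with single libraries left out the sham difference ranged from −0.29 (without sham RV replicate 3) to −0.01 (without sham RV replicate 1).

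Set against its neighbours within each library, Casp4 did not keep a fixed ratio. The FPKM of Casp4 was 2.68 to 3.45 times that of Casp1 in sham LV, 1.76 to 2.61 times in VO LV, 1.88 to 3.76 times in sham RV and 3.70 to 4.58 times in VO RV. It was 1.90 to 2.60 times that of Casp12 in sham LV, and 1.0 to 2.03 times in the other 9 libraries. The ratio to Casp1 was at most 2.61 in VO LV and at least 2.68 in sham LV, and the ratio to Casp12 overlapped between these groups. Between these groups the ratios carry the known fall of Casp4 and are given as a description. Over the 12 libraries Pearson's r of the log2 values was 0.37 for Casp4 and Casp1, −0.02 for Casp4 and Casp12 and −0.39 for Casp1 and Casp12, with the points sharing group and depth.

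**Figure D3:**
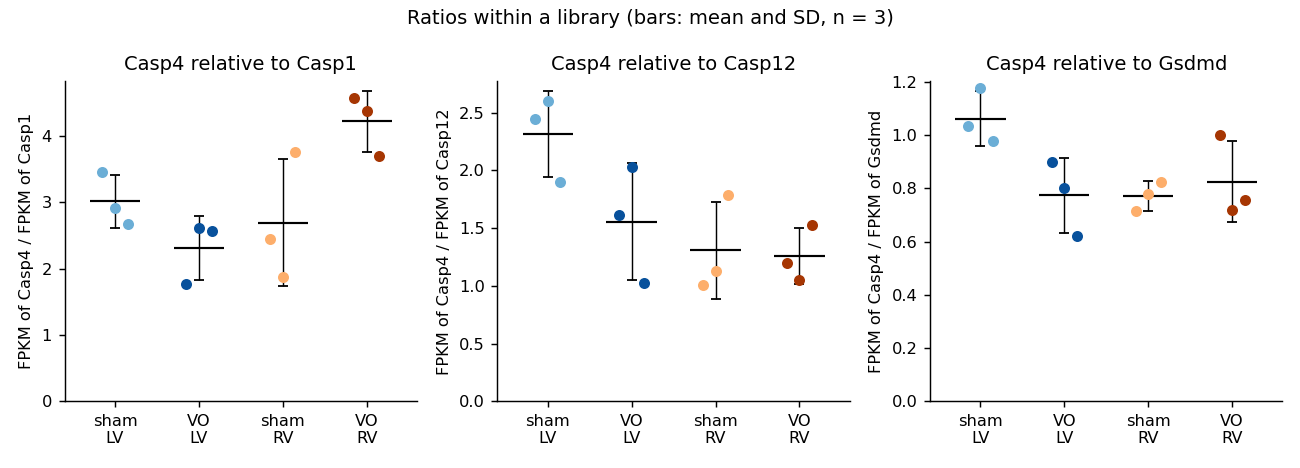
FPKM of Casp4 divided by that of Casp1, Casp12 or Gsdmd (panels; vertical axes from 0) in each library of the 4 groups, with bars for mean and SD (n = 3). The ratio to Casp1 was 3.70 to 4.58 in VO RV and 1.76 to 2.61 in VO LV.

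Gsdmd encodes gasdermin D, whose cut fragment opens pores in the membrane. Its FPKM was 8.24, 6.99 and 7.48 in sham LV and 6.52, 6.0 and 6.42 in sham RV, without overlap. It was 5.62, 6.03 and 6.61 in VO LV and 5.82, 8.44 and 8.55 in VO RV, where replicate 1 lay apart from the other two. The difference between sham LV and sham RV was 0.24 ± 0.14 (adjusted p = 0.284 from limma) and the RV response 0.23 ± 0.14 (0.642), which was 0.40 without VO RV replicate 1 and 0.15 without replicate 2 or 3. Over all alternatives the sham difference ranged from 0.01 to 0.31, with adjusted p values of 0.110 to 0.949 from limma. The LV response, as a description, was −0.29 ± 0.14, with no overlap, and −0.37 to −0.11 over the alternatives. With Casp4 its r over the 12 libraries was 0.62, and the ratio of Casp4 to Gsdmd was 0.978 to 1.18 in sham LV and 0.623 to 1.00 elsewhere.

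Il1b and Il18 encode the cytokines that caspase-1 releases, a fever-inducing signal and an inducer of interferon gamma. The FPKM of Il1b was 0.792, 3.14 and 1.03 in sham LV and 0.867, 0.606 and 0.868 in sham RV. It was 1.2, 1.73 and 0.839 in VO LV and 0.962, 1.36 and 2.18 in VO RV. Sham LV replicate 2 was far above the other 2 libraries of its group, and VO RV lay above sham RV without overlap. The RV response of Il1b was 0.61 ± 0.37 on the log2 scale (adjusted p = 0.653 from limma), and the sham difference was 0.60 ± 0.37 (0.318). The latter was 0.14 without sham LV replicate 2, and the former 0.37 without VO RV replicate 3.

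The FPKM of Il18 was 0.904, 1.29 and 0.573 in sham LV and 0.722, 0.770 and 0.735 in sham RV. It was 0.676, 1.02 and 0.465 in VO LV and 0.533, 1.66 and 1.81 in VO RV. The groups overlapped in every comparison, with VO RV replicate 1 low and replicates 2 and 3 high. The RV response was 0.48 ± 0.32 (adjusted p = 0.680 from limma) and the sham difference 0.16 (0.773), which became −0.02 without sham LV replicate 2. When single VO RV libraries were left out, the RV response was 0.85, 0.32 and 0.27 for the omission of replicates 1, 2 and 3. The highest r between members was that of Il1b and Il18, 0.68 over the 12 libraries.

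Across the 7 tested members the LV response was negative, from −0.72 for Casp4 to −0.14 for Casp12, with a median of all tested genes of −0.02. It turned positive for Il1b without sham LV replicate 2 (0.29) or VO LV replicate 3 (0.01), with array weights (0.14) or the Y-linked covariate (0.06), for Casp12 without VO LV replicate 2 (0.02), and for Il18 with the Y-linked (0.05) or macrophage covariate (0.10). In the RV, Casp4, Casp12, Gsdmd, Il1b and Il18 were positive and Pycard and Casp1 negative, beside a median of 0.00 over all genes, although Gsdmd and Il18 were negative and Pycard positive with the macrophage covariate. The differences of the responses, LV minus RV, were −1.02 ± 0.15 for Casp4, −0.77 ± 0.52 for Il1b, −0.69 ± 0.45 for Il18, −0.52 ± 0.19 for Gsdmd, −0.46 ± 0.27 for Casp12, −0.44 ± 0.30 for Pycard and −0.02 ± 0.30 for Casp1. With the macrophage covariate that of Gsdmd was 0.01 and that of Il18 0.20, and that of Casp1 turned positive in 8 alternatives, up to 0.23 with array weights. These values share the known LV libraries and are given as a description.

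**Figure D4:**
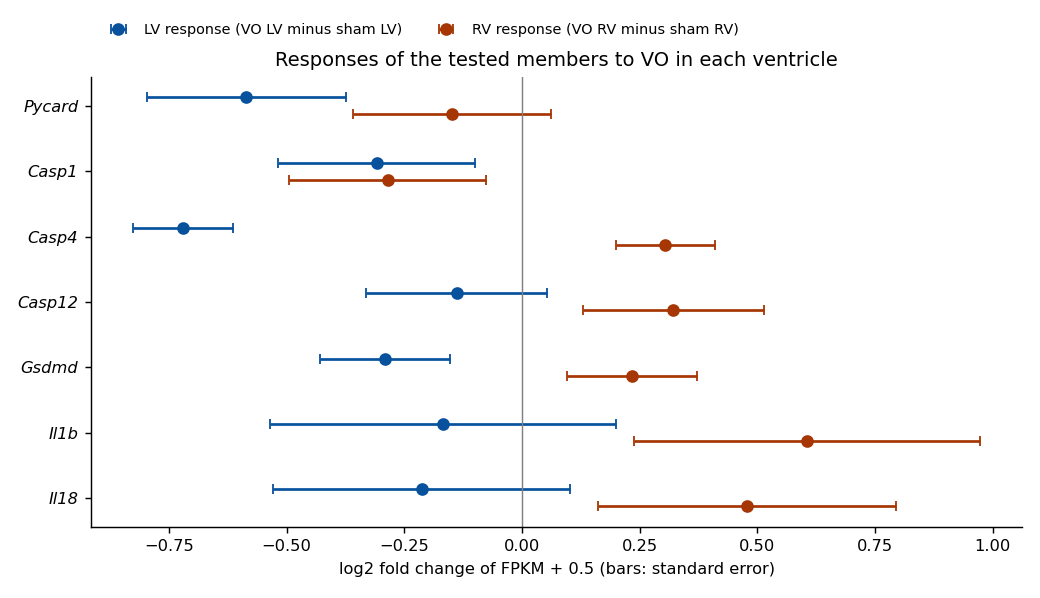
Log2 fold changes of the 7 tested members in VO LV against sham LV and VO RV against sham RV (horizontal axis; points with bars for the standard error). Casp4 lay at −0.72 in the LV and at 0.30 in the RV, and only Casp1 and Pycard were negative in both.

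Counted by call, the members were few. In VO RV against sham RV, limma called 0 members and 0 (0%) of the 13910 tested genes, although 1 member, Casp4, and 1168 genes (8.40%) had an unadjusted p under 0.05. In VO LV against VO RV it called 0 members against 0.00719% of all genes, with 2 members, Casp4 and Casp12, and 1585 genes (11.4%) at an unadjusted p under 0.05. In VO LV against sham LV, Casp4 passed the same thresholds, as did 0.0935% of all genes, and in the difference of the responses it did so beside 4.19%, but the members were chosen with that fall known, and nothing is read from either count. Groups did not overlap for 2 of 7 members between sham LV and sham RV (Casp4 and Gsdmd), against 32.2% of all tested genes, and for 2 between VO LV and VO RV (Casp4 and Casp12), against 16.1%. They did not overlap for 3 between VO LV and sham LV, against 32.4%, and for 2 between VO RV and sham RV (Casp4 and Il1b), against 12.5%.

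Marker lists of other cells differed in summed level between some groups. The summed FPKM of 15 macrophage markers was 160 to 178 in sham LV, 121 to 162 in VO LV, 121 to 128 in sham RV and 128 to 191 in VO RV, and none was at 0 in a group. None of the 15 was called in any comparison of 2 groups, with a median log2 difference of 0.24 (14 of 15 higher) between sham LV and sham RV, −0.31 (0 higher) between VO LV and VO RV, −0.19 (2 higher) for the LV response and 0.42 (14 higher) for the RV response. For the difference of the responses the median was −0.68 (0 higher), with C1qb and Laptm5 past the thresholds. The summed FPKM of the monocyte and neutrophil markers was 30.9 to 47.4 in sham LV, 16.4 to 34.0 in VO LV, 15 to 23.7 in sham RV and 19.1 to 35.8 in VO RV. Mpo, Elane and Ccr2 were at 0 in both RV groups, Elane and Ccr2 also in VO LV, and Mpo also in sham LV. With the macrophage markers as a covariate, the sham difference of Casp4 was 0.63 (adjusted p = 0.107 from limma), its RV response was 0.25 (0.851), and the RV responses of Gsdmd and Il18 turned to −0.11 each. Under that covariate 2 of all tested genes were called in the sham comparison, against 537 without it. Endothelial sums were 536 to 577 in sham LV, 453 to 498 in VO LV, 420 to 440 in sham RV and 407 to 528 in VO RV, and 4 of 8 tested endothelial markers (Kdr, Tie1, Emcn and Esam) were called higher in sham LV than in sham RV. Red cell sums were 9686 to 13269, 6502 to 9960, 4927 to 8224 and 4809 to 10817 in that order of groups, with 0 of 8 markers called in the sham comparison. Lymphocyte sums were 13.4 to 15.6 in sham LV and 9.59 to 13 in sham RV. Sham LV lay above sham RV without overlap for these 3 sums, as it did for Casp4. Fibroblast sums were 2755 to 2937 in sham LV, 2189 to 2690 in VO LV, 2965 to 3842 in sham RV and 2711 to 5192 in VO RV, so that the LV lay below the RV without overlap in sham and in VO rats, and VO LV below sham LV. Their median log2 difference was −0.19 (0 of 10 higher) between sham LV and sham RV, −0.56 (1 higher) between VO LV and VO RV, −0.20 (1 higher) for the LV response and 0.16 (9 higher) for the RV response, with none called. Of the other lists, S100a8 of monocytes and neutrophils and Cd79a of lymphocytes were called higher in sham LV than in sham RV, and Ryr2 and Atp2a2 of ventricular cardiomyocytes lower. Without sham RV replicate 1, 0 of all tested genes were called in that comparison, so these calls and the endothelial ones were lost. With the atrial markers as a covariate, the sham difference of Casp4 was 0.66 (adjusted p = 0.0420 from limma) and was still called, and its RV response was 0.31 (0.342). Beyond the macrophage and atrial covariates the part of these cells in the members' values was not tested.

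**Figure D5:**
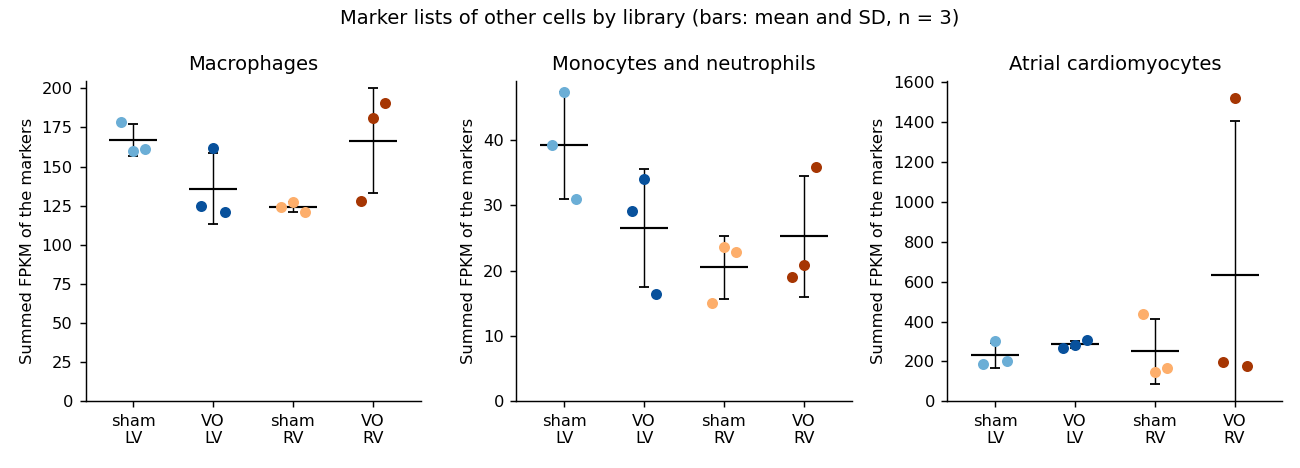
Summed FPKM of the markers of macrophages, monocytes and neutrophils, and atrial cardiomyocytes (panels; vertical axes from 0) in each library of the 4 groups, with bars for mean and SD (n = 3). The macrophage sum was 160 to 178 in sham LV and 121 to 128 in sham RV, and the atrial sum reached 1522 in 1 VO RV library.

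The other genes of the pathway were read in 9 lists of 145 genes, of which 97 were tested. Between sham LV and sham RV, 2 were called higher in the LV and 1 lower, or 3.09% beside the 3.86% of all tested genes, and none without sham RV replicate 1. Irak2, a kinase of the receptors that prime the inflammasome, had 4.03 ± 0.494 FPKM in sham LV and 2.16 ± 0.413 in sham RV (0.77 on the log2 scale, adjusted p = 0.0432). Ager, a receptor for damage signals, had 5.40 ± 0.445 and 2.36 ± 0.784 (1.07, adjusted p = 0.0418), and Nek7, which binds NLRP3 for its assembly, had 8.04 ± 1.63 and 19.1 ± 4.02 (−1.20, adjusted p = 0.0387), all from limma. Nek7 was thus lower where Casp4 was higher.

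In limma's test none of the 97 was called in VO LV against sham LV, in VO RV against sham RV or in VO LV against VO RV, where 22, 8 and 9 of them (22.7%, 8.25% and 9.28%) had an unadjusted p under 0.05, beside 23.4%, 8.40% and 11.4% of all tested genes. In the difference of the responses, 5 of the 97 (5.15%, beside 4.19% of all genes) passed the thresholds, with a positive value for Nek7 (1.65 on the log2 scale) and a negative one for 4. These 4 were Irak2 (−1.15), Ager (−1.39), Mlkl, which carries out necroptosis (−0.84), and Ninj1, which ruptures the membrane of dying cells (−0.44). These differences contain the known LV comparison and are read as descriptions. Of all tested genes, 0 passed the thresholds in this contrast with the macrophage covariate. The same held without sham LV replicate 1 or 2, sham RV replicate 1, or VO LV replicate 2 or 3. Mlkl had 3.66 ± 0.294 FPKM in sham LV, 2.54 ± 0.374 in VO LV, 2.54 ± 0.0992 in sham RV and 3.46 ± 0.396 in VO RV. Its means were higher in sham LV and VO RV than in the other groups, as for Casp4. Unlike those of Casp4, its VO RV libraries (3.06 to 3.85) overlapped with sham LV (3.35 to 3.94). The median log2 fold change of the 97 genes was 0.09 between sham LV and sham RV, −0.05 for the LV response, 0.04 for the RV response and −0.13 for their difference, beside 0.01, −0.02, 0.00 and −0.04 over all tested genes.

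By list, the 16 inflammasome inhibitors, the 15 genes of other caspases and of their adaptors and inhibitors, the 7 downstream cytokines and chemokines, the 4 receptors and binding proteins of the interleukin-1 family, its 2 other ligands and the 3 genes tested from the list of other sensors (Nlrp1a and the peptidases Dpp8 and Dpp9) had no call in any comparison. Among the ligands, Il33, an alarm signal of stromal cells, had 3.18 ± 0.312 FPKM in sham LV, 2.97 ± 0.506 in VO LV, 4.96 ± 0.255 in sham RV and 5.90 ± 2.09 in VO RV. The receptor antagonist gene Il1rn had 0.956 ± 0.223, 0.594 ± 0.270, 0.478 ± 0.232 and 0.890 ± 0.501 in the same order. Neither gene passed the test in any of the comparisons.

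The genes most like a member were found by Pearson's r of log2 values over the 12 libraries among the 12667 genes that averaged 1 FPKM or more. For Casp4 they were the gene annotated as selenoprotein 15 (r = 0.954), AABR07021996.1 (0.946) and Aga, a lysosomal enzyme (0.941). For Gsdmd the first was Adm, encoding adrenomedullin (0.932), for Il18 Nab2 (0.957), for Il1b LOC690422 (0.908), for Casp1 Steap4 (0.897), for Casp12 Casc4 (0.886) and for Pycard Chic2 (0.880). The libraries share group and depth, and with 12 points among so many genes, no weight is placed on the values of r.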

How the data were processed

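RNA from ventricular free walls was sequenced in 12 poly-A libraries. The authors removed low-quality reads, aligned the rest with HISAT2 2.0.5, counted them per gene with featureCounts 1.5.0-p3 and deposited FPKM. The genome build and the strand setting were not given in the sources used here. Multiplied by gene length, 100% of the FPKM values under 200 reads gave whole reads within 0.02, which gave the read numbers. The values were rescaled by median-ratio size factors and taken to log2 after adding 0.5. The 13910 genes averaging 0.5 FPKM or more entered 1 model of the 4 groups with limma 3.58.1 in R 4.3.3 (lmFit, contrasts.fit, eBayes with trend), adjusted by Benjamini-Hochberg over all of them. DESeq2, which the authors used, was not run, and voom on the recovered reads served as the count-based alternative. For single members the FPKM were also put to a two-sided exact permutation test, whose smallest p is 0.10.

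The members, lists and named-gene rule were chosen with earlier results of these data known. By the rule, all members, the called genes of each pathway list, the gene of largest change in a list where an example was given, and the genes most like each tested member (3 for Casp4 and the first for the others, of 3 that the rule allows) were named. Marker genes that were called or at 0, and the genes of the sensor list, were named after their values were seen. Mlkl's order was remarked on after its values were seen. The promoter strings were chosen by hand after matches had been seen, and longer strings that were also tried are not reported, among them the core of an interferon-stimulated response element, which matched inside the run that Casp1 and Casp12 share. The procedure was tested on simulated data. Alternatives were pseudocounts of 0.1 and 1, quantile normalization, no rescaling, no filter beyond a value above 0, a filter at a mean of 1 FPKM, separate fits, the replicate number as a block, array weights, robust eBayes, voom on recovered reads, covariates for Y-linked, atrial and macrophage genes, and each library left out. Leaving out both RV libraries of high atrial markers was added after seeing the data.

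Whether the replicate numbers pair the samples is not stated, and the check did not meet the rule for pairing, a correlation over 0.1 in every pair. Same-numbered sham LV and RV libraries had correlations of 0.04, 0.04 and 0.12, and VO libraries 0.05, −0.05 and −0.22. Y-linked expression was present or near 0 alike in the 3 same-numbered sham pairs, but not in the VO pair numbered 3.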

Additional observations from a re-analysis of the deposited data

Results flagged for a closer look

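The response of Casp4 to VO had opposite signs in the ventricles. On the log2 scale it was −0.72 in the LV against 0.30 in the RV, a difference of −1.02, and in neither ventricle did the VO and sham libraries overlap, though the RV value did not pass the test (adjusted p = 0.547 from limma). Macrophage markers had median log2 changes of −0.19 in the LV and 0.42 in the RV, with 2 of 15 past the thresholds in the difference (−0.68). With these markers as a covariate the Casp4 difference was −0.93 and did not pass the thresholds. Of all tested genes, 0 passed them under that covariate, against 583 without it. Without the covariate Casp4 passed in 6 of 12 fits that each left out a library. For the same difference, 4 of 11 ventricular cardiomyocyte markers (Myh6, Myh7, Ryr2 and Atp2a2) passed the thresholds with positive values (median 0.31), and 10 fibroblast markers had a median of −0.38 (1 higher). Medians were −0.75 for mast cells (2 of 6 higher), −0.70 for monocytes and neutrophils (0 of 6), −0.58 for red cells (0 of 8), −0.52 for atrial cardiomyocytes (0 of 4), −0.31 for endothelial cells (0 of 8) and −0.26 for lymphocytes (0 of 6). The 1 tested thymus gene had 0.06. Of all tested genes, 0 passed in this difference without sham LV replicate 1 or 2, sham RV replicate 1, or VO LV replicate 2 or 3. With the atrial markers as a covariate the Casp4 difference was −1.03 and passed the thresholds. The part of the other lists named here after the macrophages was not tested. The contrast contains the comparison in which Casp4 was already known to fall, so the difference is given as a value and is not shown by an independent test.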

How the results depend on the processing

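The number of members past the thresholds was 1 between sham LV and sham RV, 1 in the LV response, 1 in the difference of the responses and 0 in the other comparisons. The LV response and the difference hold the values known when the members were chosen, so their counts are descriptions. It was 0 in the sham comparison with all genes above 0, the replicate block, the macrophage covariate and without both RV libraries of high atrial markers. In that order, 8, 3, 2 and 9 of all tested genes were called there. The number of members was 0 in the LV response under these settings and the Y-linked covariate. It was also 0 in the difference under the replicate block, the macrophage covariate and without both RV libraries. Under the replicate block the adjusted p of Casp4 between sham LV and sham RV was 0.0741, and the log2 fold changes were as before. Leaving out 1 library at a time gave 0 to 1 members in the sham comparison and the LV response, and 0 to 2 in the difference, the second being Gsdmd without VO RV replicate 1. The cause was not tested. The log2 fold change of Casp4 kept its sign in all alternatives, at −0.79 to −0.64 in the LV response and 0.25 to 0.36 in the RV response. Of values that had passed no test, signs turned as follows. Pycard between VO LV and VO RV became 0.00167 with array weights, and with 1 library left out it ranged from −0.247 to 0.0378, Il1b there from −0.378 to 0.0557, and Il18 between the sham groups from −0.0173 to 0.349. The turns came without VO LV replicate 3 or VO RV replicate 1 for Pycard, without replicate 3 of either VO group for Il1b, and without sham LV replicate 2 for Il18. With the macrophage covariate Il18 between the sham groups became −0.22, Gsdmd between VO LV and VO RV 0.020, and the RV responses became 0.10 for Pycard, −0.11 for Gsdmd and −0.11 for Il18. For the difference of the responses, given as a description, Gsdmd became 0.01 and Il18 0.20 with the macrophage covariate, and Casp1 ranged from −0.22 to 0.23. Over all tested genes the count past the thresholds ranged over the alternatives from 0 to 1321 between the sham groups (537 as reported), 1 to 48 between the VO groups (1), 0 to 704 in the LV response (13), 0 to 2 in the RV response (0) and 0 to 1213 in the difference (583).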
